A study of Mus musculus with 7 samples.

Results

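The Rorb neurons described here, labelled layer 4, are excitatory neurons of the P2 mouse cortex that carry RNA of Rorb, the gene for the orphan nuclear receptor RORβ. They were chosen by raw unique molecular identifier (UMI) counts in a single library: at least 3 UMIs of Neurod2 and Neurod6 together, at least 3 of Rorb, and at most 1 each of Fezf2 with Tle4, of Eomes, and of Gad1 with Gad2. Of the 3283 P2 cells with at least 500 detected genes and at most 10% mitochondrial UMIs, 1803 carried at least 3 Neurod2 and Neurod6 UMIs and are called glutamatergic here. Of these, 214 met every limit, which was 11.9% of the glutamatergic cells (95% binomial interval 10.4 to 13.5). Over all 7 libraries of the series 21002 cells were kept. The comparator is the other 1589 glutamatergic cells of the same library, unless another is named.

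The study sampled mouse brain cells by droplet RNA sequencing (10x Genomics, 3' chemistry), in cortex at postnatal days 2, 7, 15 and 60, in P60 grey and white matter, and in the P7 ventricular-subventricular zone (SVZ). The P2, P7, P15 and P60 cortex libraries came from CD1 mice, as did the P60 grey and white matter. The P7 SVZ library came from C57BL/6 mice, and the labels give no treatment for any of the 7. The P2 dissection took everything dorsal to the lateral ventricles, so grey matter, white matter and the ventricular zone are all in it, and the labels do not say how many animals were used. No allele, transgene or sort is named in the labels for any library. The P2 library held 3584 barcodes and 35952444 UMIs. With 1 library there is no replicate, so no test was made: levels are the summed UMIs of a gene as CPM, scaled to the total of the group, folds are ratios of CPM, and every bracket after a fold or a share is a 95% interval that covers counting error only.

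Layer 4 is the main layer of sensory cortex to receive axons from the thalamus, and in the somatosensory cortex of the mouse its neurons gather into barrels, one for each whisker. RORβ is a transcription factor of layer 4 that binds the DNA letters AGGTCA as part of a longer element, and in mouse cortex it takes part in the grouping of these neurons. The layer takes shape in the first days after birth, when thalamic axons grow into it, and lies between the callosal neurons of layers 2 and 3 and the Fezf2 and Tle4 neurons that send axons out of the cortex.

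The label's other markers, Rgs2 and Brinp1, were not used by the rule. They were chosen with earlier results of these data known, so their levels describe the set and are no independent check of the label. Rgs2, a regulator of G-protein signalling (chr1:143999338-144004161, minus strand, mm10), stood at 133 CPM in the Rorb neurons and 29.5 CPM in the other glutamatergic cells, a ratio of 4.49-fold (3.96 to 5.09). Brinp1, a neural protein inducible by retinoic acid (chr4:68761514-68954397, minus strand), stood at 149 and 45.9 CPM, a ratio of 3.25-fold (2.91 to 3.63). Both markers were thus higher in the chosen cells, but neither belongs to them alone. Rgs2 stood at 112 CPM in the 258 cells with at least 3 Gad1 and Gad2 UMIs and no Neurod2 or Neurod6 UMI, called interneurons here, and Brinp1 at 101 CPM in the Fezf2/Tle4 neurons described further on.

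A list of 10 layer 4 genes had 4 members besides Rorb with a mean of at least 10 CPM over both groups, and all 4 were at least 1.5-fold higher in the Rorb neurons, with a median ratio of 3.80. The same 4 were all higher against upper-layer neurons, and 3 of them against Fezf2/Tle4 neurons. The background was taken over 7893 genes tested, for that count and for later list counts against the other glutamatergic cells unless another is given. Of these genes, 4.89% (386 genes) were at least 1.5-fold higher and 4.92% (388 genes) at least 1.5-fold lower, with a median ratio of 0.983. Rgs2 and Brinp1, given above, are among these 4, so the count is not separate from their levels. The other members that were measured were Plxnd1, a semaphorin receptor, at 23.3 against 5.57 CPM, and Pcdh20, a protocadherin, at 18.4 against 5.38 CPM. Several layer 4 genes of the adult were scarce at this age. Kcnh5, a potassium channel, was at 9.81 against 1.81 CPM, and Btbd3, which orients dendrites towards active axons in mouse barrels, at 8.58 against 5.62 CPM. Whrn was at 1.53 against 5.18 CPM, Rspo1 had 1 UMI and Scnn1a none in the 214 cells. Summed over the list without Rorb, the level was 344 CPM in the Rorb neurons, against 99.7 CPM in the other glutamatergic cells, and 143 of the 214 cells carried at least 3 UMIs of it.

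The share of cells with a UMI was compared after thinning every cell to 3000 UMIs, since the Rorb neurons were deeper (median 14725 UMIs and 4042.5 genes) than the other glutamatergic cells (11962 UMIs and 3670 genes). Brinp1 was then found in 39.0% of Rorb neurons and 9.48% of the other glutamatergic cells, and in 6.61% of 560 non-neuronal cells, which had no UMI of Neurod2, Neurod6, Gad1 or Gad2 and at least 5 of Slc1a3, Aldoc, Olig1, Olig2, C1qa, C1qb and Cldn5. The unthinned shares were 77.1, 27.7 and 12.9%, with a median of 7074.5 UMIs in the non-neuronal cells. Rgs2 was found in 29.6, 8.91 and 5.71% after thinning, and in 54.2, 25.5 and 13.1% before it. Both markers thus left many single cells without a read, while their shares in the Rorb neurons lay above those of the non-neuronal cells.

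The rule itself fixed the following values, which are given as a description. Rorb (chr19:18930605-19111196, minus strand) had a median of 8 UMIs in the 214 cells, with an interquartile range of 4.25 to 15 and a highest count of 51. Its summed level was 733 CPM in the Rorb neurons and 52.9 CPM in the other glutamatergic cells. Of the 255 glutamatergic cells with at least 3 Rorb UMIs, 38 exceeded the limit on Fezf2 and Tle4, 4 the limit on Gad1 and Gad2, and none the limit on Eomes. No Fezf2 or Tle4 UMI was present in 185 of the 214 cells. Just inside the threshold lay 33 cells with 3 Rorb UMIs, and just outside it 73 cells with 2 that met all other limits. At that border Brinp1 was at 60.2 CPM inside and 42.3 CPM outside, and Rgs2 at 29.3 CPM inside and 46.5 CPM outside, so at this line Brinp1 was higher and Rgs2 lower among the cells just inside. Rorb was also present outside neurons, at 74.0 CPM in the non-neuronal cells. Neurod2, a transcription factor of excitatory neurons, was at 455 against 558 CPM, and its relative Neurod6 at 322 against 777 CPM.

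**Figure D1:**
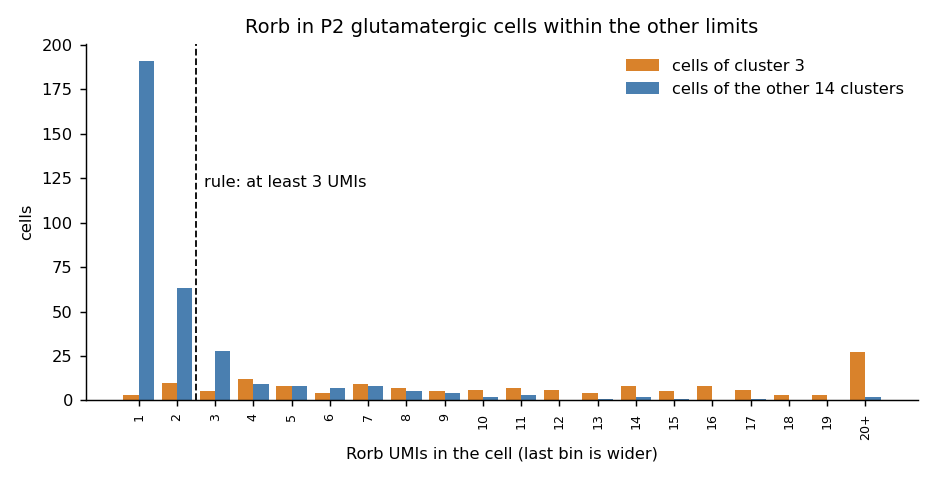
Number of P2 glutamatergic cells (vertical axis) by Rorb UMIs in the cell (horizontal axis), for cells within the limits on Fezf2 and Tle4, Eomes, and Gad1 and Gad2; 927 cells with 0 Rorb UMIs are not drawn. Orange bars are cells of cluster 3, a cluster made without the rule genes, and blue bars cells of the other 14 clusters; of the 56 cells with at least 15 Rorb UMIs, 52 were in cluster 3.

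Among the 15 genes with the highest ratio to the other glutamatergic cells (genes with a mean of at least 20 CPM), 3 encode transcription factors. Msx3, a homeobox gene of the Msx family (chr7:140046157-140049089, minus strand), had the highest ratio, 16.0-fold (11.8 to 21.8), with 48.4 CPM in the Rorb neurons and 3.03 CPM in the other glutamatergic cells. It had no UMI in the interneurons or in the non-neuronal cells, and after thinning it was found in 12.2% of Rorb neurons, against 0.822% of the other glutamatergic cells (36.4 and 2.83% unthinned). Barx2, another homeobox gene, stood at 37.4 against 4.84 CPM, 7.73-fold (5.88 to 10.2). Dbp, a circadian factor that binds D-box elements, stood at 76.6 against 15.8 CPM, 4.84-fold (4.09 to 5.72).

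Secreted and surface proteins made up the next group. Igfbp5, which binds insulin-like growth factors outside the cell, was at 149 against 19.0 CPM, 7.83-fold (6.84 to 8.97), although non-neuronal cells held as much of it (159 CPM). Inhba, the gene of the activin A subunit, was at 234 against 51.8 CPM, 4.52-fold (4.12 to 4.97). It stood at 76.0 CPM in upper-layer neurons without Rorb and at 13.1 CPM in the Fezf2/Tle4 neurons, so it was shared with the upper layers at a lower level. Sema7a, a membrane-anchored semaphorin, was at 192 against 48.2 CPM, 3.98-fold (3.60 to 4.40). The adhesion genes Cdh6, a classical cadherin, and Fat3, a giant atypical cadherin, were at 109 against 22.2 CPM and 112 against 23.8 CPM, ratios of 4.91 and 4.71.

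The other genes of the highest 15, besides Rgs2 given above, have mixed roles. Shisa6, an auxiliary protein of AMPA-type glutamate receptors, was at 36.5 against 5.28 CPM, 6.91-fold (5.28 to 9.05). Cadps2, which primes dense-core vesicles for release, was at 34.9 against 8.75 CPM, 3.99-fold (3.13 to 5.08). Tbc1d5, a regulator of Rab proteins in endosomal traffic, was at 128 against 31.1 CPM, 4.10-fold (3.62 to 4.65). These 3 were higher than in both kinds of neighbour, the upper-layer neurons (4.56, 9.72 and 38.1 CPM, in the same order) and the Fezf2/Tle4 neurons (4.47, 5.30 and 27.1 CPM). Slc35f4, a solute carrier, had a ratio of 4.54, and AI593442, for which no role is given here, 4.43.

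Hspb3, a small heat shock protein (chr13:113662896-113663676, minus strand), was at 104 against 16.1 CPM, 6.44-fold (5.52 to 7.52). It was at 3.91 CPM in the Fezf2/Tle4 neurons and 0.423 CPM in interneurons. Its promoter and that of the marker Rgs2 are shown because the set was chosen on a factor that binds AGGTCA: of the 13 promoters available for the highest 15 genes, that of Hspb3 was the only one with these letters in the window from 250 bases before to 50 after the gene's start (RefSeq, mm10). Capitals mark the letters, searched as AGGTCA on both strands (TGACCT on the other), and each sequence is written 5′ to 3′ on the gene's own strand.
Hspb3 promoter, chr13:113663627-113663926, minus strand: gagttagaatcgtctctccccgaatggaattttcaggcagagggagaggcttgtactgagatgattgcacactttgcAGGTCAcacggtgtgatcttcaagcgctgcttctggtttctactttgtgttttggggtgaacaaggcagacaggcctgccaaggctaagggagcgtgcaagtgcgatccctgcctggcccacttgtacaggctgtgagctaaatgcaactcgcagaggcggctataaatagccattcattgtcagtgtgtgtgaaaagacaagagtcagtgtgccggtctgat
Rgs2 promoter, chr1:144004100-144004399, minus strand: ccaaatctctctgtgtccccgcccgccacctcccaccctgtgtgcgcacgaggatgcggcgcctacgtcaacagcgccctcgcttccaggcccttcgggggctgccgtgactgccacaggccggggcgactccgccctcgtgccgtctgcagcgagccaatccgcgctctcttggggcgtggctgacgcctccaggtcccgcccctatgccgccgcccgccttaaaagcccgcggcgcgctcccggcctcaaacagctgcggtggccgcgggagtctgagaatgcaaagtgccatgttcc
That was 7.69% of the 13 windows, against 16.0% of 27025 mouse promoters and 16.7% of the 12 promoters available for the lowest 15 genes. The Rgs2 window holds no such letters, and a match is a run of letters and not a shown binding site.

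The 15 genes with the lowest ratio were led by genes of the deep layers. Crym, a thyroid hormone-binding protein of corticofugal neurons, had 1 UMI in the Rorb neurons (0.307 CPM), against 56.1 CPM in the other glutamatergic cells. Bcl11b, the transcription factor CTIP2 of subcerebral neurons, was at 3.37 against 51.2 CPM, and Hs3st4, a heparan sulfate sulfotransferase of layer 6, at 2.45 against 45.2 CPM. Their levels in the Fezf2/Tle4 neurons were 265, 205 and 207 CPM in the same order. All 3 were also near the floor in upper-layer neurons (1.39, 1.79 and 1.59 CPM), so their low level separated the Rorb neurons from the deep layers and not from the upper ones. The rule's limit on Fezf2 and Tle4 removed deep neurons, and the same genes chose the Fezf2/Tle4 neurons. The low levels therefore follow in part from that choice and are no independent sign of layer. Nts, the neurotensin precursor, was at 4.90 against 199.8 CPM, although without thinning it was found in similar shares of cells, 7.48 and 9.50%. Pcp4, a calmodulin-binding protein, was at 21.8 against 155 CPM. Rprml, Igsf21, Islr2 and Ppp1r1b, the gene of DARPP-32, had ratios of 0.144, 0.178, 0.0846 and 0.190, and all 4 stood higher in the Fezf2/Tle4 neurons than in the Rorb and upper-layer neurons. Against other glutamatergic cells within the same limits on Fezf2 and Tle4, Eomes and Gad1 and Gad2, the ratio of Rprml was 1.01.

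Others of the lowest 15 were low against the upper-layer neurons as well. Tshz2, a zinc finger factor, was at 4.60 CPM in the Rorb neurons, against 107 CPM in the other glutamatergic cells and 54.6 CPM in upper-layer neurons. Igfbpl1, a gene of newborn neurons, was at 66.2 against 684 CPM, with 426 CPM in upper-layer neurons. Ntf3, the growth factor neurotrophin-3, was at 6.13 against 34.5 CPM, with 27.6 CPM in upper-layer neurons. The summed levels of Igfbpl1 and Ntf3 were therefore lower than in upper-layer neurons too. Without thinning, Igfbpl1 was found in 35.0% of Rorb neurons and 79.3% of upper-layer neurons. Ntf3 was found in 5.14 and 10.9%, Tshz2 in 2.80 and 9.47%, and Cxcl14, given below, in 6.07 and 8.88%. For each of these 3 genes, most upper-layer neurons thus had no UMI either. The guidance genes Robo1, a Slit receptor, and Sema3c, a secreted semaphorin, were at 7.05 against 34.9 CPM and 5.52 against 39.6 CPM. Cxcl14, a chemokine, was at 10.7 against 68.1 CPM, and its level in interneurons was 594 CPM.

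**Figure D2:**
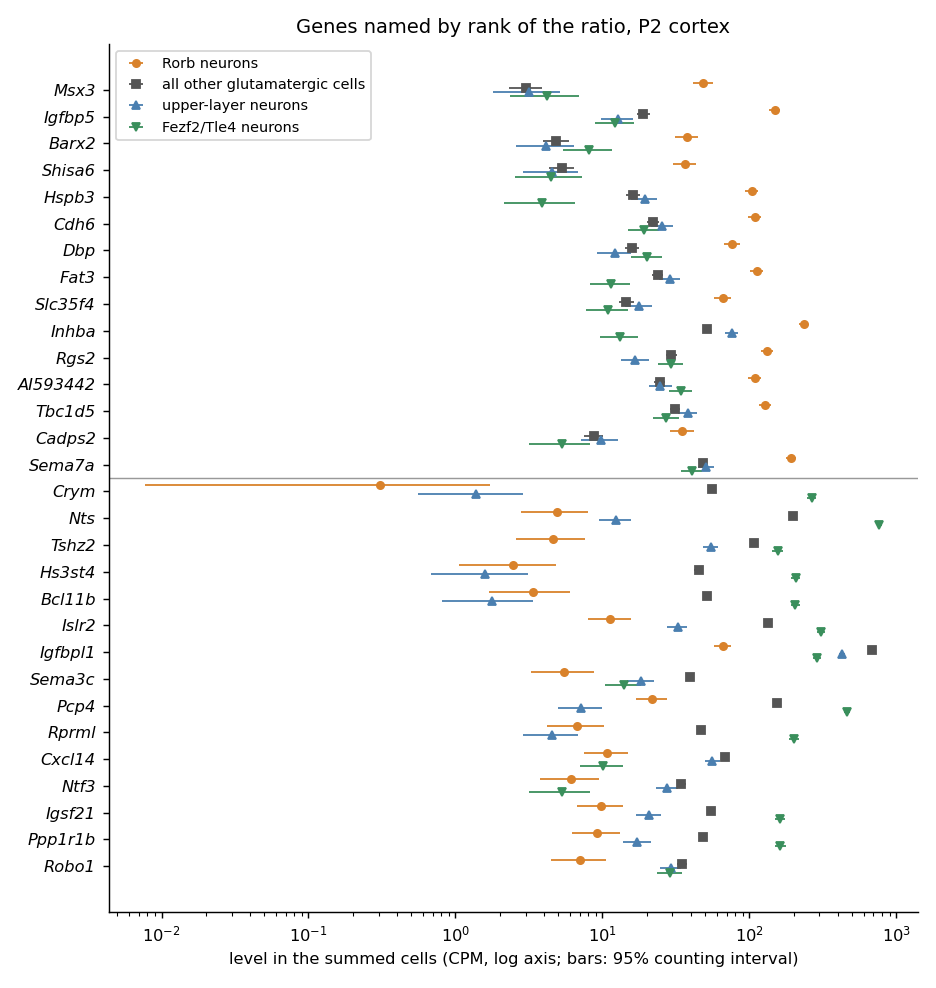
Level in CPM (horizontal, log axis) of the 15 genes with the highest (above the line) and the 15 with the lowest ratio of Rorb neurons to all other glutamatergic cells at P2. Symbols stand for the 214 Rorb neurons, the 1589 other glutamatergic cells, 338 upper-layer neurons and 253 Fezf2/Tle4 neurons, and bars for 95% counting intervals; Msx3 stands at 48.4 CPM in the Rorb neurons and at 3.03 CPM in the other glutamatergic cells.

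Against the 2 closest kinds of excitatory neuron the differences were counted separately. The 338 upper-layer neurons had at least 3 UMIs of a pair of upper-layer genes that includes Cux2, no Rorb UMI, and met the other limits (median 15089.5 UMIs). The 253 Fezf2/Tle4 neurons had at least 3 UMIs of Fezf2 and Tle4 together and at most 1 of Rorb (median 12424 UMIs). Of 7753 genes compared with upper-layer neurons, 551 (7.11%) were at least 1.5-fold higher in the Rorb neurons and 285 (3.68%) at least 1.5-fold lower. Of 8011 compared with Fezf2/Tle4 neurons, 548 (6.84%) were higher and 929 (11.6%) lower. By these counts fewer genes lay past 1.5-fold against upper-layer neurons than against Fezf2/Tle4 neurons. The median ratios over all genes were 1.02 and 0.946. These shares are the background for the list counts against the same neurons.

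The list of upper-layer and callosal genes had 19 members measured: 10 higher, 2 lower and 7 between against the other glutamatergic cells. Cux1 and Cux2, homeobox genes of layers 2 to 4, were at 358 against 139 CPM and 146 against 57.8 CPM. Pou3f1, a POU domain factor of upper layers, was at 402 against 152 CPM. Mef2c, an activity-regulated transcription factor, was at 4581 against 2748 CPM, and Lpl, lipoprotein lipase, at 548 against 189.6 CPM. Nrp1, the semaphorin 3A receptor of callosal axons, was one of the lower genes at 16.2 against 65.1 CPM, and Cdh13, T-cadherin, the other at 35.9 against 58.3 CPM. Against upper-layer neurons the same list gave 5 higher, 3 lower and 11 between, and against Fezf2/Tle4 neurons 16 higher, 2 lower and 1 between. The median ratio over the list was 1.10 against upper-layer neurons and 4.60 against Fezf2/Tle4 neurons. Genes of this list, Cux2 among them, chose the upper-layer neurons, so the counts and the median against those neurons are not independent of that choice.

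Genes of deep output neurons were low. Of 8 layer 5 genes measured, 7 were lower and 1 higher, with a median ratio of 0.180. Etv1, an ETS factor of layer 5, was at 1.84 CPM in the Rorb neurons, against 34.0 CPM in the other glutamatergic cells. Ldb2, a LIM domain-binding protein, was at 20.2 against 92.1 CPM, and Lmo4, a LIM-only protein, at 296 against 505 CPM. The single higher gene was Cntn6, a contactin, with a ratio of 3.41. All 9 layer 6 genes measured were lower, with a median of 0.220, and among them were Nfib at 137 against 467 CPM and Nfia at 25.4 against 115 CPM, both nuclear factor I genes. Tbr1, the layer 6 transcription factor, was at 51.2 against 90.1 CPM. The only subplate gene measured, Hs3st4, was the layer 6 gene given above. The rule's limit on Fezf2 and Tle4 removed deep neurons from the Rorb set, so these counts describe what that limit kept and are no independent sign of layer.

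Genes of progenitors and newborn neurons were either lower or between the limits. Of 11 measured, 0 were higher, 5 were lower and 6 lay between, with a median ratio of 0.677. When both groups were held to the same range of depth, 0 were higher and 4 lower of 10, and the median ratio was 1.01. In that range 424 of all 7827 genes were higher and 413 lower. Sox11, a factor of newborn neurons, was at 469 against 1011 CPM. Dcx, a microtubule protein of migrating neurons, was at 321 against 288 CPM, a ratio of 1.11, so not every gene of young neurons was lower. Immediate early genes, which respond to activity and to tissue handling, gave 0 higher, 5 lower and 3 between of 8 measured. Against upper-layer neurons they gave 0 higher and 4 lower of 8, and against Fezf2/Tle4 neurons 0 higher and 1 lower of 7. Fos was at 34.6 against 74.6 CPM and Jun at 44.1 against 99.1 CPM. The part of dissociation in these levels was not tested.

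Synaptic genes went both ways. The list had 27 genes measured, with 8 higher, 4 lower and 15 between against the other glutamatergic cells. The direction depended on the neighbour: 10 were higher and 0 lower of 26 against upper-layer neurons, and 4 higher and 10 lower of 27 against Fezf2/Tle4 neurons. Slc17a6, the vesicular glutamate transporter VGLUT2, was at 49.7 against 20.4 CPM, 2.44-fold (2.02 to 2.93), whereas Slc17a7, the transporter VGLUT1, was at 17.8 against 28.8 CPM, 0.616-fold (0.462 to 0.808). Rbfox3, the gene of the neuronal splicing factor NeuN, was at 332 against 149 CPM, and Nrgn, the calmodulin-binding neurogranin, at 933 against 478 CPM. Nefl, the light neurofilament chain, was at 14.7 against 29.6 CPM. The 2 glutamate transporters therefore stood on opposite sides of the other glutamatergic cells, though Slc17a7 was scarce in both groups at this age.

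Receptor genes for glutamate and GABA gave 6 higher, 2 lower and 13 between of 21 measured, against 4.89% higher and 4.92% lower of all genes. Grm2, a presynaptic metabotropic glutamate receptor, was at 35.9 against 9.19 CPM, 3.90-fold (3.07 to 4.94), and Gabrb1, a subunit of the GABA-A receptor, at 111 against 36.4 CPM, 3.05-fold (2.68 to 3.46). Grin2a, an NMDA receptor subunit that increases with age in the mouse cortex, was at 56.7 against 26.2 CPM. Gabra2, a subunit of the younger brain, was at 61.0 against 117 CPM, and Gria2, an AMPA receptor subunit, at 277 against 445 CPM. Grin2b, the NMDA subunit of the young brain, was at 383 against 399 CPM, between the limits. Ion channel genes gave 7 higher, 2 lower and 17 between of 26 measured. Against upper-layer neurons 10 of them were higher and 2 lower of 26, and against Fezf2/Tle4 neurons 4 were higher and 4 lower of 27. The potassium channels Kcnh7, at 70.2 against 33.4 CPM, and Kcnma1, at 119 against 61.0 CPM, were on the high side. Kcnn2, at 15.9 against 31.4 CPM, was on the low side. Cacna1g, a T-type calcium channel, was at 28.8 against 14.9 CPM.

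Axon guidance genes gave 4 higher, 7 lower and 10 between of 21 measured. When both groups were held to the same range of depth, 6 were higher and 6 lower of 21, beside 424 higher and 413 lower of all 7827 genes. Robo1, Sema3c and Nrp1 are given above, and Ephb1, an ephrin receptor, was at 12.3 against 37.6 CPM. Epha4, an ephrin-A and ephrin-B receptor, was at 221 against 113 CPM, and Efna5, one of its ligands, at 71.1 against 41.7 CPM. Unc5c, a netrin receptor, was at 25.7 against 15.5 CPM. Cadherins and protocadherins gave 4 higher, 5 lower and 8 between of 17 measured. Cdh6 was high as given above, whereas Cdh2, N-cadherin, was at 84.0 against 175 CPM and Cdh11 at 11.0 against 31.6 CPM.

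Genes linked to barrel formation in mice gave 4 higher, 1 lower and 5 between of 10 measured. Higher were Epha4, Grm5, a metabotropic glutamate receptor (123 against 77.6 CPM), Plcb1, a phospholipase of its pathway (131 against 78.1 CPM), and Lhx2, a LIM homeobox factor (195 against 116 CPM). Lmo4 was the lower one. Area-patterning genes gave 3 higher, 5 lower and 4 between of 12 measured. Tenm3, a teneurin that guides matched connections, was at 67.1 against 26.6 CPM, and Lmo3 at 203 against 105 CPM. Id2, an inhibitor of bHLH factors, was at 402 against 1144 CPM, 0.352-fold (0.332 to 0.372).

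Within the families of the label's markers, Rgs2 was the only 1 of 8 RGS genes past 1.5-fold against the other glutamatergic cells. The other 7 lay between the limits, from 0.685 for Rgs19 upward. Against upper-layer neurons 2 RGS genes of 8 were higher and 0 lower, and against Fezf2/Tle4 neurons 2 of 11 were higher and 6 lower. Of the 3 ROR and BRINP genes measured besides Rorb, Rora and Brinp1 were higher and Brinp2 lay between at 0.681. Against Fezf2/Tle4 neurons 1 gene of these families was higher and 2 were lower, of 4 measured. Rora, the related receptor RORα, was at 32.5 against 10.4 CPM, 3.13-fold (2.46 to 3.98).

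Markers of other cell types were summed, because droplets can hold RNA of other cells. The 9 astrocyte and radial glia genes together stood at 170.1 CPM in the Rorb neurons, 243 CPM in the other glutamatergic cells and 17044 CPM in non-neuronal cells, which Slc1a3 and Aldoc helped to choose. Of the 6 measured, Hopx and Vim were higher in the Rorb neurons (24.5 against 9.14 CPM and 19.0 against 12.5 CPM), Slc1a3 and Fabp7 lower and the other 2 between the limits. Aqp4, an astrocyte water channel, had 0 UMIs in the Rorb neurons. The 10 interneuron genes stood at 227, 356 and, in interneurons, 2734 CPM, mostly Npy (210.0 against 332 CPM). The 7 microglial genes stood at 27.6 against 31.0 CPM. Oligodendrocyte lineage genes stood at 6.13 against 18.8 CPM, vascular genes at 2.15 against 4.99 CPM, Cajal-Retzius genes at 5.52 against 4.25 CPM and haemoglobin genes at 2.15 against 2.84 CPM. Markers at 0 in the Rorb neurons included Dlx5, Sox10, Cspg4, C1qb, Cx3cr1, P2ry12, Cldn5, Flt1, Trp73 and Lhx1. None of these sums was more than 1.5-fold higher in the Rorb neurons. Of the 214 cells, 3 (1.40%) were called doublets, against 27 of the 1589 other glutamatergic cells. P2 shared 90 cell barcodes with other libraries, 5 of them of Rorb neurons.

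The set was graded by its own Rorb count. In the Rorb neurons with 3, 4 to 6, 7 to 14 and at least 15 Rorb UMIs (33, 48, 77 and 56 cells), Rgs2 stood at 29.3, 54.1, 131 and 310.0 CPM. Brinp1 stood at 60.2, 76.5, 169 and 273 CPM and Msx3 at 4.88, 25.1, 59.8 and 92.4 CPM in the same order. Dbp stood at 29.3, 51.4, 75.8 and 146 CPM. These 4 genes were thus highest in the cells with most Rorb, while the median depth ran the other way, with 17426 UMIs at 3 Rorb UMIs and 12279.5 at 15 or more. The makeup of the sets shifted as well. Cluster 3, described below, held 5 of the 33 cells with 3 Rorb UMIs and 52 of the 56 with at least 15. The part of this shift in the levels was not tested. Other genes did not follow this order. Igfbp5 was highest in the middle, at 39.1, 207, 197 and 101 CPM, and Inhba stood at 242, 182, 230.0 and 290.1 CPM. Mef2c stood at 4449, 4393, 4688 and 4716 CPM, within a narrow range. Igfbpl1 ran downward, at 116, 56.7, 75.8 and 17.1 CPM, and stood at 253 CPM in cells with 2 Rorb UMIs and 892 CPM in those with 0. Sox11 stood at 675 CPM at 3 Rorb UMIs and 300.1 CPM at 15 or more, Id2 at 890.2, 372, 343 and 108 CPM and Lmo4 at 464, 298, 276 and 179 CPM.

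**Figure D3:**
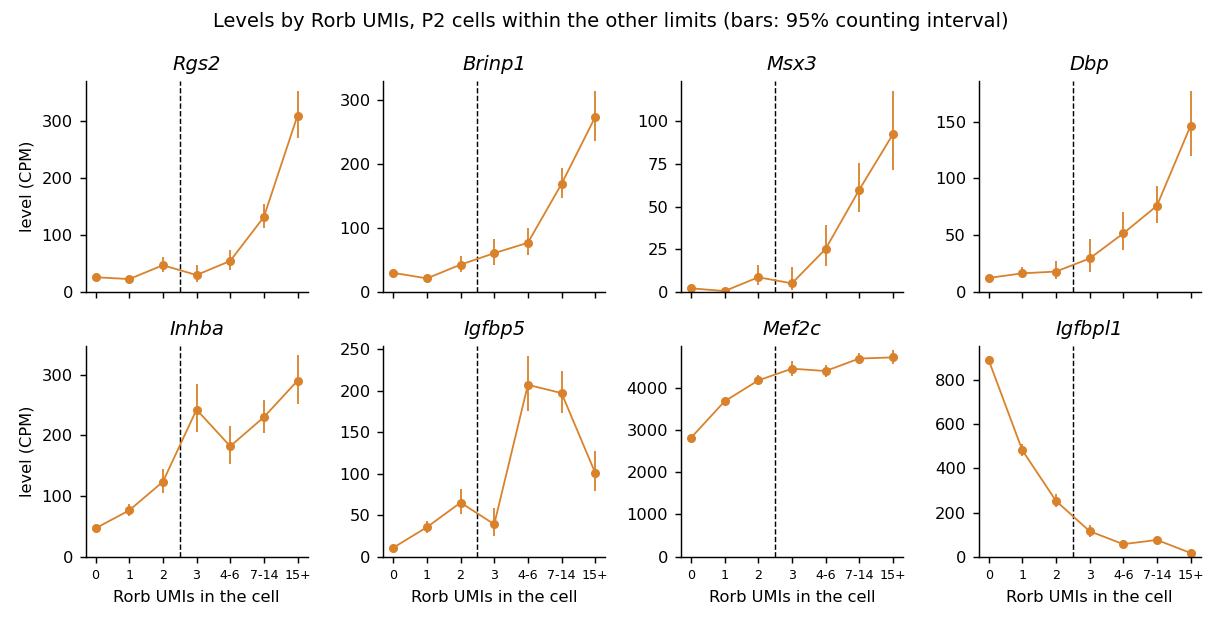
Level in CPM (vertical axes, each from 0) of 8 genes by Rorb UMIs in the cell (horizontal axes), for P2 glutamatergic cells within the other limits; the dashed line is the threshold of 3 UMIs and bars are 95% counting intervals. Rgs2 stands at 29.3 CPM in cells with 3 Rorb UMIs and at 310.0 CPM in cells with 15 or more, whereas Mef2c stays between 4393 and 4716 CPM over the same cells.

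Clusters of all 1803 glutamatergic cells, made from variable genes without the 8 rule genes, placed most Rorb neurons together. Of 15 clusters, cluster 3, led by Msx3, Pde8b and Krt12, held 133 of the 214 Rorb neurons (62.1%, interval 55.3 to 68.7), and these were 85.8% (79.3 to 90.9) of its 155 cells. Of its other 22 cells, 14 had under 3 Rorb UMIs, 6 exceeded the limit on Fezf2 and Tle4 and 2 that on Gad1 and Gad2. The remaining 81 Rorb neurons lay mostly in cluster 2, led by Ostn and Fst (30 of 150 cells), cluster 4, led by Cpne8 and Inhba (26 of 190 cells), and cluster 10, led by Hes1 and Nrxn3 (17 of 112 cells, 8 of the 112 called doublets). Each of the other 11 clusters held 0 to 2. With the 133 cells of cluster 3 alone, a choice made after the data were seen, set against the same other glutamatergic cells, 660 genes were at least 1.5-fold higher and 636 lower, in place of 386 and 388.

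**Figure D4:**
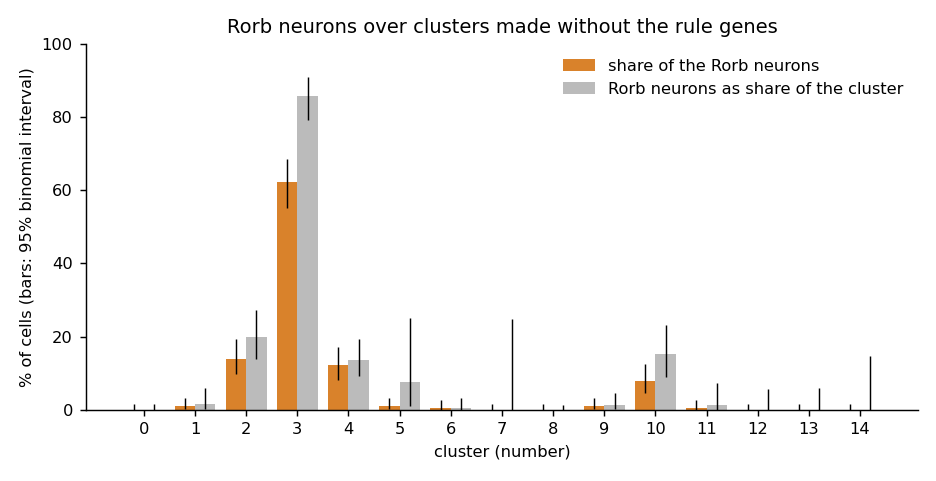
Share of the 214 Rorb neurons in each of 15 clusters (orange) and share of each cluster that were Rorb neurons (grey), in % of cells, with 95% binomial intervals. Cluster 3 held 62.1% of the Rorb neurons, which made up 85.8% of it.

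The 133 Rorb neurons inside cluster 3 and the 81 outside it differed in the label's markers, which is a description because the clusters were made from these genes. Rorb had a median of 12 UMIs inside and 5 outside, although the cells inside were shallower (median 12840 against 17715 UMIs). Rgs2 was at 216 against 40.1 CPM and Brinp1 at 231 against 58.8 CPM. Outside cluster 3 these markers stood only 1.36 and 1.28 times above the other glutamatergic cells, so both markers of the label lay under 1.5-fold for the 81 cells outside. Msx3 was at 82.2 against 11.0 CPM, Dbp at 124 against 23.9 CPM and Rora at 49.5 against 13.6 CPM. Cux1, of the upper-layer list, was at 454 against 251 CPM. Lmo4 was at 138 against 471 CPM, Id2 at 222 against 602 CPM and Tshz2 at 0.583 against 9.05 CPM. Within cluster 3, Rgs2 stood at 216 CPM in the Rorb neurons and 117 CPM in the 22 cells that missed the rule, and Brinp1 at 231 and 157 CPM.

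Rorb neurons can also be set beside the other cells of their own cluster, here for Rgs2, Brinp1, Inhba and Igfbp5. In cluster 2, with 30 Rorb neurons and 120 others, Rgs2 stood at 33.2 against 17.4 CPM, Brinp1 at 57.3 against 13.0 CPM, Inhba at 38.8 against 51.8 CPM and Igfbp5 at 218 against 44.8 CPM. In cluster 4, with 26 Rorb neurons and 164 others, Rgs2 stood at 40.3 against 29.3 CPM, Brinp1 at 52.3 against 33.0 CPM, Inhba at 382 against 203 CPM and Igfbp5 at 26.2 against 22.9 CPM. In cluster 10, with 17 Rorb neurons and 95 others, Rgs2 stood at 46.8 against 32.7 CPM, Brinp1 at 74.3 against 68.1 CPM, Inhba at 146 against 68.5 CPM and Igfbp5 at 30.3 against 35.4 CPM. Rgs2 and Brinp1 were above the others of the cluster in all 3, but not always by more than counting error. The intervals of their ratios lay above 1 in cluster 2 (1.02 to 3.46 and 2.54 to 7.75). In cluster 4 they included 1 (0.799 to 2.25 and 0.986 to 2.46). Inhba was below the others in cluster 2, with an interval that included 1 (0.445 to 1.20). Igfbp5 was below them in cluster 10, at 30.3 against 35.4 CPM.

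When the other glutamatergic cells were weighted to the cluster makeup of the Rorb neurons, which puts most weight on the 22 others of cluster 3, fewer genes of most lists lay past 1.5-fold. Of 7756 genes, 327 were then at least 1.5-fold higher and 260 lower. The layer 4 list gave 4 higher of 4, with a median ratio of 1.95 in place of 3.80. The upper-layer list gave 2 higher and 0 lower of 19, the synaptic list 1 and 2 of 27, and the receptor list 2 and 1 of 20. Barrel genes gave 0 higher and 0 lower of 10, axon guidance genes 1 and 1 of 20, cadherins 1 and 3 of 16, area-patterning genes 0 and 1 of 11 and ion channels 1 and 3 of 26. Layer 5 genes gave 1 higher and 2 lower of 6, layer 6 genes 0 and 3 of 6, genes of progenitors and newborn neurons 0 and 1 of 10, and immediate early genes 0 and 2 of 7. Of the 3 ROR and BRINP genes, 1 was higher. Among the named genes the ratio was 0.983 for Cadps2, 1.14 for Nts and 1.04 for Ntf3.

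Over the 15 clusters, the genes whose level was most like that of Rorb (Pearson correlation of log2(CPM + 10), 5772 genes considered) were Tbc1d5 (r = 0.884), Hspb3 (0.827), Sema7a (0.803), Vstm2l (0.794) and Tgfbr1 (0.783), a TGF-β receptor. Shank2, Apbb2, Cox7a2l, Inhba and Acp1 came next, at 0.765 to 0.780. The clusters share a library and differ in depth, so this is a description. Of the 10, Acp1 and Cox7a2l differed least between the Rorb neurons and the other glutamatergic cells, with ratios of 1.13 and 1.39.

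The same limits were applied to the other 6 libraries. They were met by 0 of 107 glutamatergic cells in P7 cortex, which allows a share of up to 2.80% (3 cells of the total), by 0 of 243 in P7 SVZ, which allows up to 1.23%, by 9 of 83 in P15 cortex (10.8%, 5.08 to 19.6) and by 49 of 109 in P60 cortex (45.0%, 35.4 to 54.8). The upper ends of the exact binomial intervals for the 2 P7 libraries were 3.39 and 1.51% in the same order. The limits are raw counts, so these shares bound the cells that meet the rule and not all cells with Rorb. In P7 cortex the glutamatergic cells had a median of 5828 UMIs, against 14725 in the P2 Rorb neurons. At least 1 Rorb UMI was in 21 of the 107, and at least 3 in 3. In P7 SVZ the median was 24493 UMIs, and the counts were 30 and 2 of 243. White matter at P60 had 4 glutamatergic cells and grey matter at P60 had 0. Glutamatergic cells were 54.9% of the kept cells at P2 and at most 6.52% in every other library, so few neurons of any kind were there to be counted.

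At P15, Brinp1 had 62 UMIs in the 9 cells that met the rule and 345 in the other 74, a ratio of 1.68-fold (1.26 to 2.21), and Rora one of 2.54-fold (1.56 to 3.99). At P60 the 49 cells that met the rule were compared with the other 60 glutamatergic cells of that library. The sets of 9 and 49 cells are under the minimum of 50 cells set for giving levels, and were described after the data were seen. Brinp1 stood at 470.1 CPM in the rule's cells and 227 CPM in the others, 2.07-fold (1.68 to 2.56), whereas Rgs2 stood at 95.7 and 78.4 CPM, 1.22-fold (0.805 to 1.84). Layer 4 genes that were scarce at P2 were plain at this age. Whrn stood at 126 CPM in the rule's cells and 21.4 CPM in the others, 5.87-fold (3.29 to 11.1), the reverse of P2, where the interval of its ratio was 0.0941 to 0.712. Btbd3 stood at 234 and 78.4 CPM, 2.99-fold (2.14 to 4.21). Pcdh20 stood at 111 and 25.6 CPM, and Rora at 368 and 154 CPM.

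Of the 15 genes highest at P2, 11 had a ratio above 1 at P60, of which 7 had an interval above 1, 3 had a ratio below 1, and Msx3 had no UMI in either group. Cdh6 stood at 185 CPM in the rule's cells and 52.7 CPM in the others, 3.51-fold (2.36 to 5.31), and Cadps2 at 208 and 103 CPM, 2.03-fold (1.48 to 2.79). Igfbp5 and Inhba were on the other side, at 0.543-fold (0.339 to 0.846) and 0.344-fold (0.147 to 0.723). Of the 15 lowest at P2, 12 had a ratio below 1 at P60, of which 9 had an interval below 1, 2 had a ratio above 1 and Nts had no UMI. The shares of all genes above and below 1 at P60 were not worked out. The counts therefore describe the named genes only and do not show that the P2 pattern lasted. Bcl11b had 0 UMIs in the rule's cells and 97 in the others, and Pcp4 stood at 470.1 and 3017 CPM. Cux1, of the upper-layer list, stood at 268 and 74.1 CPM, 3.62-fold (2.60 to 5.10), and Slc17a6, of the synaptic list, at 76.6 and 25.6 CPM, 2.99-fold (1.65 to 5.58). The astrocyte list summed to 1093 CPM in the rule's cells and 1229.8 CPM in the others at P60, and the oligodendrocyte lineage list to 113 and 28.5 CPM. Their part in the P60 levels was not tested, and age, library and dissection cannot be told apart between P2 and P60.

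**Figure D5:**
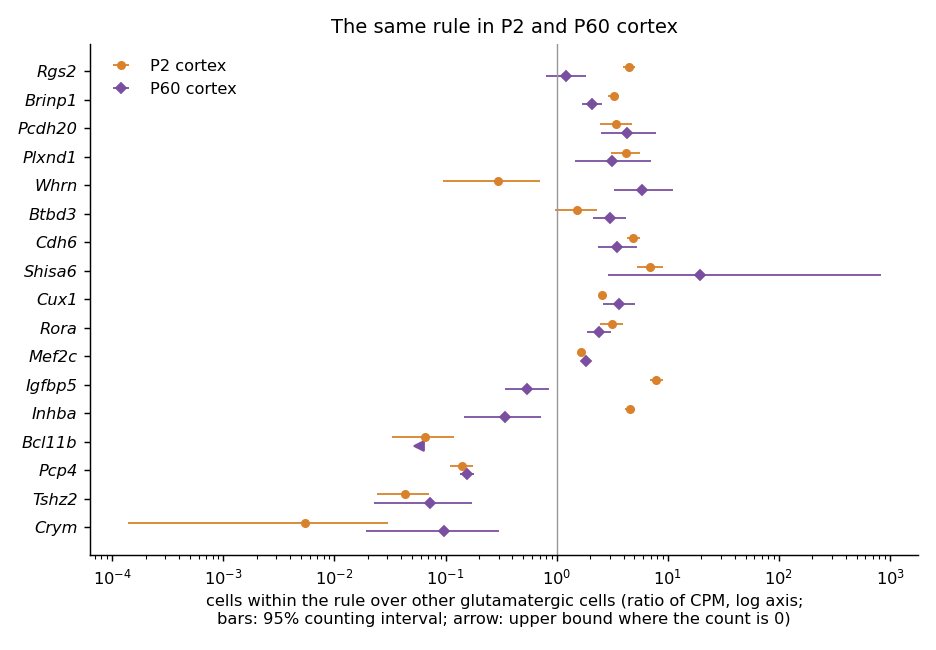
Ratio of CPM (horizontal, log axis) of cells that met the rule to the other glutamatergic cells of the same library for 17 genes, in P2 cortex (orange, 214 cells) and P60 cortex (purple, 49 cells), with 95% counting intervals; the arrow marks an upper bound for Bcl11b, which had 0 UMIs in the P60 cells. Brinp1 and Cdh6 lie above 1 at both ages, Inhba and Igfbp5 above 1 at P2 and below 1 at P60.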

How the data were processed

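The authors deposited 1 matrix of whole-number UMI counts per library, which Cell Ranger 3.0.2 wrote per the file headers; the submitters' processing notes name build mm10. No annotation release or strand setting was found in the labels or headers. Of 31053 genes, 31011 matched GENCODE M21 by identifier, which gave positions. At P2, 82 barcodes fell under 500 genes and 219 more exceeded 10% mitochondrial UMIs, and both sets were dropped. Scrublet (expected rate 0.06) marked 37 of 3283 cells as doublets; they were kept. UMIs were summed per group and scaled to CPM; ratios carry exact conditional Poisson intervals and shares exact Clopper-Pearson intervals, at 95%. A gene was counted as higher or lower at 1.5-fold, among genes with a mean of at least 10 CPM, without the 8 rule genes, mitochondrial and ribosomal protein genes. Named genes are the 15 highest and 15 lowest ratios at a mean of at least 20 CPM and 30 UMIs, without Gm and Rik models, and for each list up to 4 genes farthest from 1. Other list genes, and Pde8b, Krt12 and Stxbp6, were named after their values were seen. Clusters used 2000 variable genes, 30 components, 15 neighbours and Leiden resolution 1. Some genes that count in the lists, or helped to choose the upper-layer neurons, are not reported here. The ratio and interval steps were tested on simulated counts. The rule, the members and the gene lists were chosen with earlier results of these data known. Python 3.11.15, numpy 2.4.6, pandas 2.3.3, scipy 1.17.1, scanpy 1.11.5, matplotlib 3.10.9, R 4.3.3 and edgeR 4.0.16 (TMM and median-of-ratios scaling only) were used.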

Additional observations from a re-analysis of the deposited data

How the results depend on the processing

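The share of glutamatergic cells that met the rule was 11.9%. It was 15.9% with at least 2 Rorb UMIs and 8.87% with at least 5, which follows from the limit itself, and 11.1% when cells were thinned to 3000 UMIs and 1 Rorb UMI was asked. The counts of 386 higher and 388 lower genes moved most with the minimum level: 673 were lower at a mean of 5 CPM, 117 higher and 81 lower at 50 CPM, and 2271 higher and 5206 lower with no minimum (30.4% of these higher, against 49.9%). With the Rorb neurons of cluster 3 alone, a choice made after seeing the data, 660 were higher and 636 lower; with those outside it, 267 and 444 (37.6% higher). Scaling by TMM gave 400 and 366 and by median-of-ratios 401 and 363, and no alternative moved the median log2 ratio by more than 0.04.

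The other alternatives gave 304 to 560 higher and 260 to 563 lower genes. Of 372 alternative ratios of 31 genes (the 30 named and Brinp1), 234 stayed inside the interval of the reported ratio. Another 134 left it on the same side of 1 and 4 crossed 1. The total hides a difference between settings: all 31 stayed inside with TMM or median-of-ratios scaling, and 14 with the mean of per-cell CPM. When the others were weighted to the cluster makeup, 0 stayed inside, 28 left the interval on the same side and 3 crossed 1. Against cells within the same limits on Fezf2, Tle4, Eomes and Gad1 or Gad2, Rprml had a ratio of 1.01. With the others weighted to the cluster makeup of the Rorb neurons, Cadps2 had 0.983, Nts 1.14 and Ntf3 1.04. In that weighting most of the weight lies on the 22 cells of cluster 3 that missed the rule. No paired analysis was possible because each group holds 1 library. Small counts limit genes under about 10 CPM: 3 UMIs in the 214 cells are 0.920 CPM.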

Other observations

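Genes of the circadian clock, picked after Dbp and Nr1d1 had been seen among the leading genes, were higher in the Rorb neurons in part. Without those 2, which prompted the list, 10 of 15 clock genes had a mean of at least 10 CPM, and 4 of these were at least 1.5-fold higher and 0 lower than in the other glutamatergic cells, against 4.89% higher and 4.92% lower of all genes. The list was chosen after values were seen, so the count is a description. Nr1d1, the nuclear receptor REV-ERBα, was at 31.0 against 4.01 CPM, 7.72-fold (5.71 to 10.5), and its relative Nr1d2 at 25.1 against 7.87 CPM, 3.19-fold (2.42 to 4.19). Arntl, the gene of the clock activator BMAL1, was at 34.9 against 14.8 CPM, 2.36-fold (1.88 to 2.93), and Npas2, a partner of BMAL1, had a ratio of 2.79-fold (1.95 to 3.94). Hlf, a factor related to Dbp, was at 21.1 against 6.60 CPM, 3.20-fold (2.36 to 4.31). It stood at 2.98 CPM in upper-layer neurons but at 18.4 CPM in Fezf2/Tle4 neurons, a ratio of 1.15-fold (0.807 to 1.63) to the latter. Against Fezf2/Tle4 neurons Nr1d1, Nr1d2, Arntl and Npas2 had ratios of 5.84, 2.14, 2.12 and 2.34. Non-neuronal cells held as much Arntl as the Rorb neurons, at 35.0 CPM. Clock had a ratio of 1.10, Cry1 0.981 and Cry2 1.04. The period genes were under that mean, with Per1 at 6.44 against 7.28 CPM, 0.884-fold (0.531 to 1.40), Per2 at 1.84 against 1.56 CPM, 1.18-fold (0.402 to 2.85), and Per3 at 9.20 against 2.98 CPM, 3.08-fold (1.92 to 4.85).

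Each of the 6 higher clock genes, Dbp and Nr1d1 included, had its highest level in the cells with most Rorb. In cells with 3, 4 to 6, 7 to 14 and at least 15 Rorb UMIs, Nr1d1 stood at 11.4, 10.6, 41.3 and 52.6 CPM, Nr1d2 at 6.51, 18.5, 32.0 and 37.0 CPM and Arntl at 19.5, 26.4, 31.2 and 64.0 CPM. Npas2 stood at 8.14, 15.8, 16.0 and 18.5 CPM and Hlf at 13.0, 10.6, 21.9 and 38.4 CPM in the same order, whereas Cry1 stood at 26.0, 30.3, 28.6 and 12.8 CPM. Inside and outside cluster 3, Nr1d1 stood at 48.4 against 11.6 CPM, Nr1d2 at 37.9 against 11.0 CPM and Hlf at 32.0 against 9.05 CPM. Most cells with at least 15 Rorb UMIs lay in cluster 3, and the parts of Rorb count and cluster in these levels were not separated. At P60, Nr1d1 stood at 74.5 CPM in the 49 cells that met the rule and 76.9 CPM in the other glutamatergic cells, 0.968-fold (0.614 to 1.51), and Arntl at 83.0 and 57.0 CPM, 1.46-fold (0.912 to 2.32). The time of day of the dissections is not in the labels.

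Pde8b, a cyclic AMP phosphodiesterase, Krt12, a keratin known from the cornea, and Stxbp6, a syntaxin-binding protein, fell below the level set for naming but stood at 29.1 against 2.25 CPM, 27.9 against 3.72 CPM and 29.7 against 3.76 CPM. At P60, Krt12 was still at 134 CPM in the cells that met the rule and 28.5 CPM in the others, 4.70-fold (2.81 to 8.21), and Pde8b at 151 and 64.1 CPM, 2.36-fold (1.60 to 3.50). These genes were chosen after their values were seen.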
